A study of Mus musculus with 8 samples.

Results

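Genes of the smooth muscle contractile apparatus, 10 in number, were followed in normal mouse prostate, in prostatic intraepithelial neoplasia (PIN) and in prostate adenocarcinoma (PCa). They are Myh11, Acta2, Actg2, Cnn1, Tagln, Des, Synm, Lmod1, Smtn and Mylk, taken by symbol from a count table of 27036 genes. All 10 were found, and all 10 passed a filter of more than 1 CPM (counts-per-million) in at least 2 libraries, as did 14034 genes in all. Of the 10, 8 were lower in PCa than in WT by 21.1- to 262-fold, Smtn was 3.52-fold lower without passing the test, Synm was 1.45-fold lower without passing it, and none passed the test in PIN.

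RNA was sequenced from 3 WT control prostates, 3 PIN tissues and 2 PCa tissues. The labels name PIN and PCa hARtg-Osr1Cre: in these mice a human androgen receptor (hAR) transgene at the Rosa26 locus, floxed to be silent, is switched on by Cre made from the Osr1 gene, so that the descendants of Osr1-expressing cells can make it. The study gives R26mTmG/hAR:Osr1Cre/+ as their genotype, with the mTmG reporter that changes from a red to a green fluorescent protein on recombination. The WT mice are called WT-control in the labels, and the study describes them in different places as matched WT mice and as R26mTmG/+:Osr1Cre/+ mice, which carry the reporter and Cre but no hAR. All mice were of a mixed background that included C57BL/6, and the age behind each library is not given in the sources used here. The study reports PIN lesions from an earlier age than PCa lesions. If the libraries follow this, PIN and PCa differ in age as well as in lesion. PIN and PCa tissue was chosen under the microscope for a high content of atypical or tumor cells, and the WT tissue was not chosen in this way.

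The mouse prostate is built of glandular ducts, each wrapped in a sheath of smooth muscle whose contraction empties the gland. In a smooth muscle cell, calcium and calmodulin activate myosin light chain kinase, the phosphorylated myosin filaments then pull on actin filaments, and a network of desmin-type intermediate filaments and dense bodies carries the force across the cell. Many genes of this apparatus are read by serum response factor together with its coactivator myocardin, which act through a short DNA element, the CArG box.

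The depth was 21751803 to 29730420 counts per library in WT, 27421827 to 28517421 in PIN and 23527628 to 24457124 in PCa. CPM below are scaled by the trimmed mean of M-values (TMM), and groups were compared with the quasi-likelihood test of edgeR on the counts of all 8 libraries, adjusted over the 14034 genes by the Benjamini-Hochberg method. Calls needed an adjusted p under 0.05 together with a change past 1 on the log2 scale. Some libraries stood apart. Transcripts of the seminal vesicle, 6 genes by list, summed to 15663 CPM (WT 1), 3840 CPM (PCa 1) and 883 CPM (PCa 2), against 0.634 to 88.7 in the other libraries. The lowest Spearman correlation with a library of the same group was 0.839 in PCa and 0.923 to 0.973 in WT and PIN. Library numbers in the labels run in separate series for WT 1, for WT 2 with WT 3, and for all PIN and PCa libraries. What these numbers mark is not stated, and if they mark batches, WT cannot be told apart from its batches in a comparison with PIN or PCa.

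Promoters of the 10 genes were looked up in RefSeq sequences of GRCm38.p6, in windows of 250 bases before to 50 bases after the start of the gene, and 7 of the 10 were matched, all but Myh11, Actg2 and Tagln. An exact CArG box was found in 0 of these 7 windows and in 1.63% of all 32851 windows, searched on both strands. With 1 G or C allowed among the 6 A or T bases of the core, a form chosen after the exact search had been seen, 2 of the 7 windows and 8.50% of all windows held a box. Of the stretches before the start, 3 are printed here because they carry the contrast of the data: Acta2, with 2 boxes of the relaxed form, fell with most of the group; Synm, with 1, was not called in PCa; and Cnn1, with none, had the lowest fold change. The relaxed boxes are in capitals.

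Acta2, chr19:34255374-34255623, minus strand: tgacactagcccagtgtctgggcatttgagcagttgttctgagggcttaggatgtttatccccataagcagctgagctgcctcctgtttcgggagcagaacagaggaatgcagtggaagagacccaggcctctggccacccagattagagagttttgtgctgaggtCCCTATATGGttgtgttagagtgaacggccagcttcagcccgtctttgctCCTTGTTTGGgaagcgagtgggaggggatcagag
Synm, chr7:67759743-67759992, minus strand: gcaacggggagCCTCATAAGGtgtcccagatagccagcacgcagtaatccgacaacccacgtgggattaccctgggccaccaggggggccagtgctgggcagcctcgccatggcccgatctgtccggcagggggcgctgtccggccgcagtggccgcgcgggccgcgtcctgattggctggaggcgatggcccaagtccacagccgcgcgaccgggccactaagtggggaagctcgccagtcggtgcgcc
Cnn1, chr9:22099003-22099252, plus strand: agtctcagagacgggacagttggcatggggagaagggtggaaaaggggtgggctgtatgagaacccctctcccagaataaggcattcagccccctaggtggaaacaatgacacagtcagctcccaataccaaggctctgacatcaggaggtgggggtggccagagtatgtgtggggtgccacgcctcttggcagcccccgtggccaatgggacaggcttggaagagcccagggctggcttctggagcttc

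In Acta2 the boxes CCCTATATGG and CCTTGTTTGG begin 84 and 34 bases before the start, and in Synm the box CCTCATAAGG begins 239 bases before it. Promoters with at least 2 relaxed boxes made up 0.679% of all windows. Cnn1, Des, Lmod1, Smtn and Mylk held neither form in these short windows. A match of letters is a description and not a bound site.

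In the normal gland the contractile genes were abundant, and their order per length was the same in WT and PIN but for 1 exchange of neighbors. TPM (transcripts-per-million), a scale that divides by exon length, is used to compare genes. Acta2, smooth muscle α-actin, was highest at 1411 ± 725 TPM (SD, n = 3) in WT. Tagln, the actin-binding protein transgelin, followed at 1142 ± 427 TPM, and Myh11, the smooth muscle myosin heavy chain, at 663 ± 397 TPM. Then came Cnn1 at 483 ± 229, Actg2 at 421 ± 213, Des at 278 ± 135, Mylk at 187 ± 107, Synm at 82.6 ± 48.3, Smtn at 45.3 ± 24.8 and Lmod1 at 38.7 ± 20.6 TPM. Only Tagln and Myh11 were neighbors in this order whose means differed by more than the larger SD of the pair. In PIN Acta2 again stood first at 1811 ± 441 TPM, Actg2 and Cnn1 exchanged places at 608 ± 274 and 596 ± 160 TPM, and Lmod1 was again last at 46.6 ± 9.05 TPM. By the same measure Myh11 and Actg2, Actg2 and Cnn1, Des and Mylk, and Smtn and Lmod1 were not separated in PIN.

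In PCa this order was overturned. Synm, synemin, an intermediate filament protein that joins the desmin network, was eighth in WT and PIN and stood first in PCa at 70.3 ± 17.3 TPM (SD, n = 2). It was followed by Tagln at 21.8 ± 19.2, Acta2 at 21.2 ± 4.61, Smtn at 15.9 ± 1.57 and Mylk at 10.8 ± 4.31 TPM. The other 5 genes were at 3.93 TPM or less, down to 0.433 ± 0.223 TPM for Lmod1. Tagln and Acta2, and the successive pairs of Actg2, Myh11, Des and Cnn1, differed by less than the larger SD of the pair, with 2 libraries behind each SD.

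**Figure D1:**
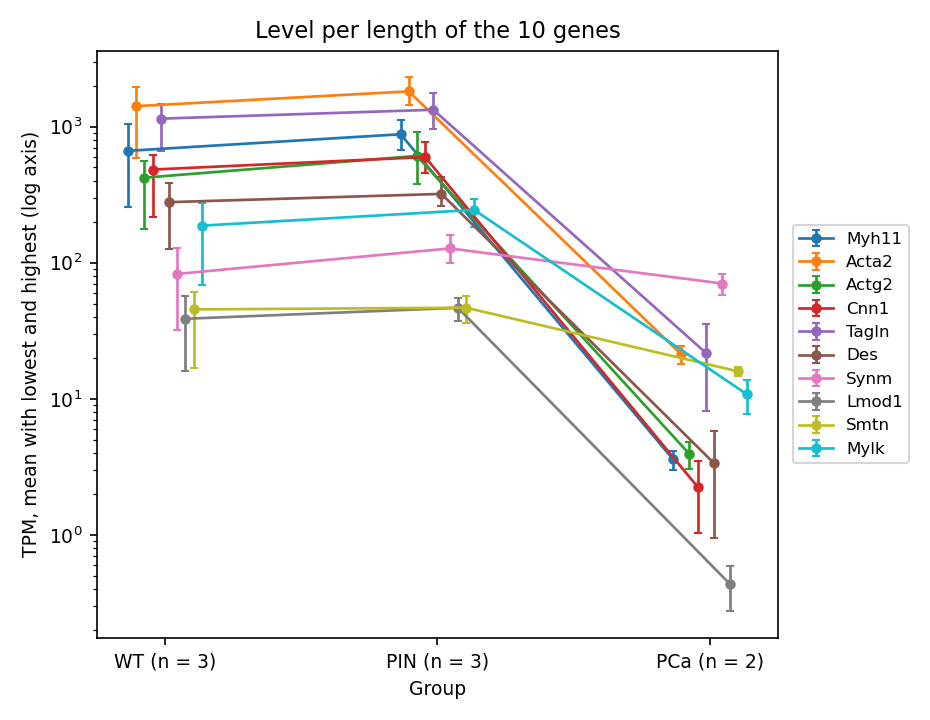
Level per length of each contractile gene by group: the vertical axis is TPM on a log axis, points are group means, bars run from the lowest to the highest library, and lines join the means of a gene. The lines of Synm and Smtn, among the lowest in WT and PIN, cross most others to reach 70.3 and 15.9 TPM in PCa, while Lmod1 ends at 0.433 TPM and Acta2 goes from 1811 TPM in PIN to 21.2.

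The thick and thin filament genes fell in PCa. Myh11, on chromosome 16 at 14194620 to 14291501 of mm9, encodes the heavy chain of the motor. It was at 1424, 680 and 2054 CPM in WT 1 to WT 3, at 1644, 1271 and 2257 CPM in PIN 1 to PIN 3, and at 7.24 and 5.04 CPM in PCa 1 and PCa 2. Both PCa libraries thus lay far below all others, with 225 and 147 counts where the lowest other library had 15009. The log2 fold change of Myh11 in PCa against WT was -7.82 ± 0.72 (SE), a 226-fold lower level, with an adjusted p of 0.00461 (edgeR quasi-likelihood, Benjamini-Hochberg).

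Acta2 (chromosome 19, 34315580 to 34329826) is the actin isoform most used to stain smooth muscle. Its values were 959, 416 and 1019 CPM in WT, 886, 727 and 1255 CPM in PIN, and 11.4 and 8.06 CPM in PCa. Actg2 (chromosome 6, 83462899 to 83486259), the γ-actin of visceral smooth muscle, was at 275, 110 and 244 CPM in WT, 241, 170 and 438 CPM in PIN, and 1.26 and 1.89 CPM in PCa. For both actins PCa did not overlap with WT or PIN: the lowest WT or PIN library was 36.5 times the highest PCa library for Acta2 and 58.2 times for Actg2. Their log2 fold changes in PCa against WT were -6.36 ± 0.61 and -7.06 ± 0.71, with adjusted p of 0.00474 and 0.00593 (edgeR quasi-likelihood, Benjamini-Hochberg). Actins are alike in sequence. In exact windows of 50 bases, 0.404% of the longest Acta2 transcript and none of that of Actg2 were found in protein-coding transcripts of other genes. For Myh11 it was 0.395%, shared with other myosin heavy chains. Whether reads of a gene were counted for another was not tested.

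Lmod1 (chromosome 1, 137221384 to 137264642), leiomodin, starts new actin filaments in smooth muscle. It had 54.0, 25.5 and 65.9 CPM in WT, 54.9, 41.7 and 66.7 CPM in PIN, and 0.611 and 0.274 CPM in PCa. The PCa values rest on 19 and 8 counts, so their own precision is low, yet the lowest other library was 41.7 times the higher of them. Against WT, Lmod1 was at a log2 fold change of -6.75 ± 0.64 and an adjusted p of 0.00461 (edgeR quasi-likelihood, Benjamini-Hochberg), and at -7.43 without PCa 1.

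The actin-binding proteins of the contractile unit behaved like the filaments, with Smtn apart. Cnn1 (chromosome 9, 21903725 to 21914074), calponin, restrains the myosin motor on actin. It was at 454, 207 and 434 CPM in WT, 384, 310 and 562 CPM in PIN, and 2.16 and 0.617 CPM in PCa. Its log2 fold change of -8.03 ± 0.81 against WT, 262-fold, was the lowest of the 10, with an adjusted p of 0.00593 (edgeR quasi-likelihood, Benjamini-Hochberg). Its size depended on the PCa library, at -9.19 without PCa 1 and -7.39 without PCa 2, where Myh11 was lower, at -7.57.

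Tagln (chromosome 9, 45737711 to 45744141) was at 646, 419 and 689 CPM in WT, 584, 437 and 854 CPM in PIN, and 14.7 and 3.26 CPM in PCa. The PCa libraries were again lowest, but they differed from each other by 4.51-fold. The log2 fold change was -6.02 ± 0.80, with an adjusted p of 0.00867 (edgeR quasi-likelihood, Benjamini-Hochberg), and it was -7.48 without PCa 1 and -5.30 without PCa 2. Tagln overlaps Pcsk7 on the opposite strand by 65 bases, and the strand setting of the counting is not stated.

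Smtn (chromosome 11, 3417526 to 3440615), smoothelin, is an actin-associated protein of fully contractile smooth muscle. It had 84.0, 29.3 and 75.4 CPM in WT, 59.8, 44.8 and 77.1 CPM in PIN, and 17.0 and 18.8 CPM in PCa. Both PCa libraries were below all others, but WT 2 was only 1.56-fold above the higher of them. The log2 fold change was -1.82 ± 0.47 against WT and -1.76 ± 0.47 against PIN, and neither was called, with adjusted p of 0.0539 and 0.0708 (edgeR quasi-likelihood, Benjamini-Hochberg). Without WT 2 the adjusted p of Smtn was 0.0170 against WT and 0.0207 against PIN, and DESeq2 also called it in both, at 0.00225 and 0.00358, all adjusted by Benjamini-Hochberg. The newer quasi-likelihood method of edgeR called it against WT, at an adjusted p of 0.0462, but not against PIN, at 0.0602. Smtn overlaps Gm11946, on the opposite strand, by 6700 bases, which held 3 to 141 counts in WT, 45 to 102 in PIN and 1 and 0 in PCa.

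The intermediate filaments split. Des (chromosome 1, 75356904 to 75365154), desmin, the main intermediate filament of muscle, was at 385, 189 and 424 CPM in WT, 294, 282 and 493 CPM in PIN, and 5.70 and 0.891 CPM in PCa. It was thus lower in both PCa libraries, with a difference of 6.39-fold between them, the widest of the 10 genes. For Des the log2 fold change was -6.65 ± 0.95, with an adjusted p of 0.0104 (edgeR quasi-likelihood, Benjamini-Hochberg), and it was -8.53 without PCa 1 and -5.85 without PCa 2.

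Synm (chromosome 7, 74875047 to 74904628) had 220, 101 and 299 CPM in WT, 282, 224 and 390 CPM in PIN, and 121 and 165 CPM in PCa. Both PCa libraries lay above WT 2 and below every other library. Its log2 fold change was -0.53 ± 0.46 against WT and -1.07 ± 0.47 against PIN, with adjusted p of 0.498 and 0.230 (edgeR quasi-likelihood, Benjamini-Hochberg). With SE of this size, these libraries do not show that Synm stayed level. The ratio of Synm to Des counts, taken within a library and so independent of the scaling between libraries, was 0.536 to 0.960 in the 6 WT and PIN libraries and 21.2 and 185 in PCa. Synm made up 4.09% to 5.52% of the summed CPM of the 10 genes in WT and PIN, and 55.0% and 73.5% in PCa 1 and PCa 2.

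Mylk (chromosome 16, 34745296 to 35002520), the kinase that starts contraction by phosphorylating the myosin light chain, was at 724, 291 and 866 CPM in WT, 794, 554 and 956 CPM in PIN, and 38.6 and 20.8 CPM in PCa. Both PCa libraries were below every WT and PIN library, and the fall was smaller than that of Myh11: Mylk counts were 0.421 to 0.508 times those of Myh11 in WT and PIN, and 5.33 and 4.13 times in PCa. The log2 fold change of Mylk was -4.40 ± 0.62, 21.1-fold, with an adjusted p of 0.0103 (edgeR quasi-likelihood, Benjamini-Hochberg). Mylk also gives non-muscle forms of the kinase. Annotated transcripts numbered 12 for Smtn, 5 for Actg2 and 4 each for Mylk and Synm, and counts per gene do not separate such forms.

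**Figure D2:**
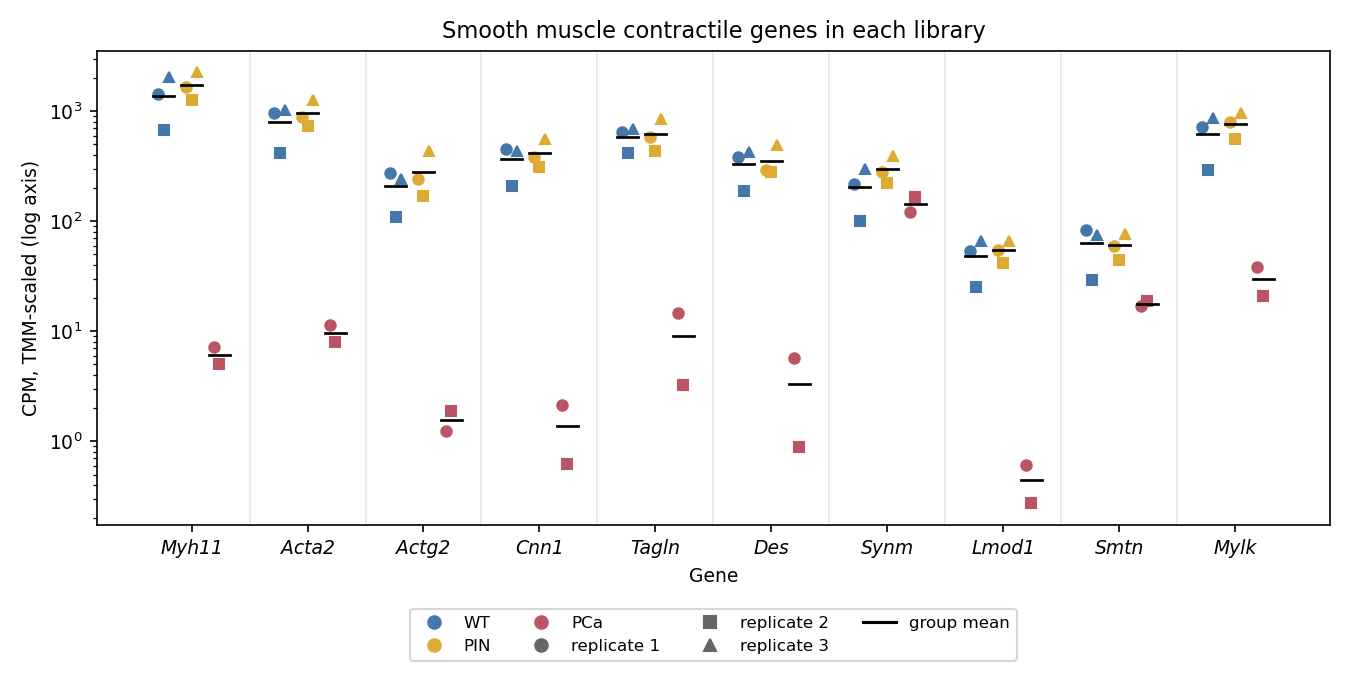
Each contractile gene in each library: the vertical axis is TMM-scaled CPM on a log axis, colors are the groups, shapes the replicate numbers and black bars the group means. The 8 called genes show a gap between the PCa points and all others, Smtn a narrow one (17.0 and 18.8 against 29.3 CPM in WT 2), and Synm none.

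Counted together, 8 of the 10 genes were called lower in PCa against WT, where 4.18% of the 14034 genes tested were called lower. The libraries did not overlap, with both PCa below every WT, for 9 of the 10, against 19.6% of all genes. Against PIN, 8 of 10 were called lower, with 3.17% of all genes called lower, and both PCa libraries were below every PIN library for 10 of 10, with 23.2% of all genes. The median log2 fold change of the 10 was -6.50 against WT and -6.68 against PIN, beside 0.01 and 0.07 over all genes tested. With library totals in place of TMM the median of all genes was 0.56 and 0.42 and that of the 10 was -5.98 and -6.29, and 8 of the 10 were again called in each. The 2 PCa libraries enter both comparisons, which are therefore not independent. When only the 2 groups compared were fitted, 5 of the 10 were called against WT, since Tagln, Des and Mylk reached adjusted p of 0.0526, 0.0611 and 0.0603 (edgeR quasi-likelihood, Benjamini-Hochberg), and without PIN 3 6 were called against PIN.

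Against PIN the log2 fold changes were -8.23 ± 0.82 for Cnn1, -8.13 ± 0.74 for Myh11, -7.49 ± 0.73 for Actg2, -6.92 ± 0.64 for Lmod1, -6.75 ± 0.96 for Des, -6.62 ± 0.61 for Acta2, -6.12 ± 0.80 for Tagln and -4.69 ± 0.63 for Mylk. Their adjusted p were 0.00563 to 0.0146 (edgeR quasi-likelihood, Benjamini-Hochberg). Each of these 8 values differed from that against WT by less than its SE.

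No contractile gene passed the test in PIN against WT. By edgeR 0 of the 10 were called, none at an unadjusted p under 0.05, and DESeq2 also called 0 of them. Of all genes 0 (0%) were called by edgeR, with 492 genes at an unadjusted p under 0.05, while DESeq2 called 39 genes. The log2 fold changes of the 10 ran from -0.06 ± 0.39 for Smtn to 0.53 ± 0.41 for Synm, with a median of 0.23 beside -0.02 over all genes, and 9 of the 10 were above 0. This direction rested on WT 2 and PIN 3. WT 2 was the lowest of the 6 WT and PIN libraries for 10 of the 10 genes, and without it 8 of the 10 log2 fold changes were below 0, from -0.40 to 0.20. PIN 3 was the highest of the 6 for 9 of the 10, all but Smtn, and without it 6 of the 10 were below 0, Actg2, Cnn1, Tagln, Des, Lmod1 and Smtn, in a range of -0.27 to 0.29.

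**Figure D3:**
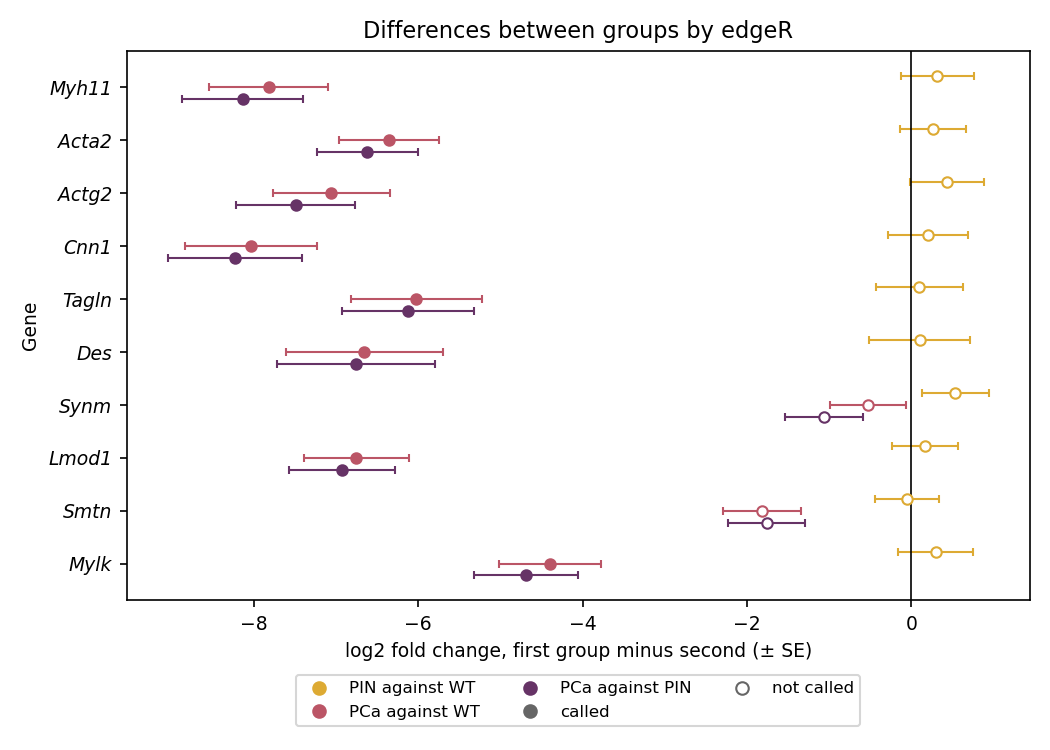
Log2 fold change of each contractile gene in the 3 comparisons: the horizontal axis is the first group minus the second on the log2 scale, bars are the SE, filled points were called and open points were not. PCa lies far to the left for 8 genes against both WT and PIN, from -4.40 to -8.23, Smtn and Synm are open, and all PIN points are open and near 0.

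The 10 genes varied together over the WT and PIN libraries, but not between the PCa libraries. Their summed CPM were 5225, 2468 and 6170 in WT, 5225, 4061 and 7349 in PIN, and 219 and 225 in PCa. Across the 6 WT and PIN libraries, the correlation of log2(CPM + 1) of each gene with the mean of the other 9 was between 0.917 for Tagln and 0.995 for Acta2, with Synm at 0.941, as a description of libraries that share their depth and tissue composition. Over all 8 libraries it was 0.933 or more for 9 genes and 0.640 for Synm. The equal sums of PCa 1 and PCa 2 hid different makeups. Of the 10 genes 7 were higher in PCa 1, by 1.42-fold for Acta2 to 6.39-fold for Des, and Actg2, Synm and Smtn were higher in PCa 2, by 1.11- to 1.50-fold. Without Synm and Smtn the sum was 81.7 CPM in PCa 1 and 40.8 in PCa 2.

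In bulk tissue, fewer smooth muscle cells and less RNA per cell cannot be told apart, nor can either be told apart from the choice of tumor-rich tissue under the microscope. Other cells of the stroma were therefore read beside the muscle. For reference, 4.18% of all genes tested were called lower against WT. Fibroblast markers (collagens, Dcn and Pdgfra among 10 genes) were called in 0 of 10 against WT, the median log2 fold change being -0.96, and their summed CPM were 595 to 1150 in WT, 836 to 1075 in PIN, and 832 and 284 in PCa 1 and PCa 2. Endothelial markers were called lower in 1 of 8 (Emcn), with a median of 0.91, and summed to 70.2 to 127 CPM in WT, 103 to 137 in PIN and 132 and 168 in PCa. Pericyte markers, of the contractile cells on capillaries, were called in 0 of 6 tested, with a median of 0.57, and summed to 13.7 to 95.6 CPM in WT, 78.8 to 84.6 in PIN and 78.8 and 515 in PCa, where Abcc9 alone had 411 CPM in PCa 2.

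Relative to these other stromal lists the muscle genes were low in PCa. The summed CPM of the 10 genes were 4.14 to 9.42 times those of the fibroblast markers in WT and PIN and 0.264 and 0.790 times in PCa 1 and PCa 2. Against the endothelial markers the ratio was 29.5 to 63.2 in WT and PIN and 1.66 and 1.34 in PCa. In PCa 1 the fibroblast markers were at the WT level, with a median difference of 0.04 on the log2(CPM + 1) scale, and the muscle genes at -5.37. In PCa 2 the fibroblast markers were at -3.002 and the muscle genes at -6.22. WT 2, the WT library with the least muscle RNA, was also lowest of WT and PIN in pericyte, endothelial and fibroblast markers and highest in luminal ones, by their median differences.

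**Figure D4:**
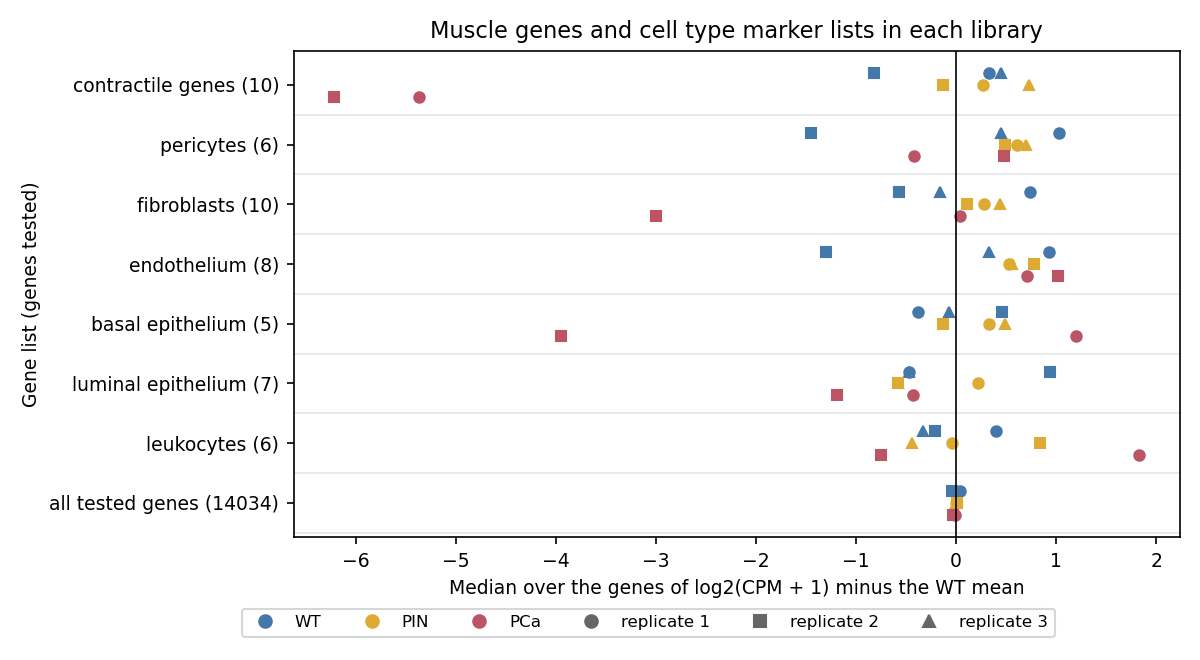
Median over the tested genes of a list of log2(CPM + 1) minus the WT mean, for each library: rows are the contractile genes, marker lists of other cell types and all tested genes, colors are the groups and shapes the replicate numbers. Both PCa points lie below -5 for the contractile genes, while the endothelial markers lie at 0.71 and 1.02 and all genes near 0, and WT 2 stands to the left of the other WT points for muscle, pericytes and endothelium.

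Few genes of the remaining marker lists were called, and their summed levels differed between the libraries. Basal epithelial markers were called in 0 of 5 against WT (median log2 fold change 0.17), and summed to 498 to 1101 CPM in WT, 491 to 816 in PIN, and 1027 and 59.2 in PCa. Luminal markers of the prostate were called lower in 1 of 7 (median -0.98), and summed to 13306 to 30719 CPM in WT, 10948 to 17232 in PIN and 3119 and 2256 in PCa. That gene was Pbsn, the androgen-driven secretory protein probasin, at 6552 to 23968 CPM in WT and 8.53 and 60.8 CPM in PCa. Pbsn carried much of the WT and PIN sums, so these do not weigh the 7 genes evenly. Spink3 added 3596 CPM in WT 1 and had 0 counts in WT 2 and WT 3. Leukocyte markers were called in 0 of 6 tested (median 1.16) and summed to 56.1 to 130 CPM in WT, 67.7 to 147 in PIN, and 383 and 33.4 in PCa. Seminal vesicle genes were called in 0 of 6 (median -0.79). Nerve and glial markers were called lower in 1 of 4 tested (median -3.49, or -2.86 with Sox10, at 0 counts in PCa, taken at a limit of 3 counts over both libraries), with sums of 7.88 to 31.6 CPM in WT, 9.18 to 12.9 in PIN and 4.28 and 5.83 in PCa. The part of these lists in the fall of the muscle genes was not tested. Leaving out WT 1 and PCa 1 together, the WT and PCa libraries with the most seminal vesicle RNA, kept all 8 calls against WT and all 8 against PIN, an alternative chosen after the data were seen. PCa 2 is then the only PCa library, still with 883 CPM of these transcripts, and it is assumed to vary like the WT and PIN libraries, so the kept calls carry little weight.

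Skeletal muscle lies near the prostate in the pelvis, and its genes overlap with those of smooth muscle, so its markers were read too. Of 15 genes, 7 were tested and 4 were called lower in PCa against WT, with 4.18% of all genes called lower. The median of the 7 was -5.61 on the log2 scale. Acta1, skeletal α-actin, had 187, 61.6 and 162 CPM in WT, 165, 50.1 and 252 CPM in PIN, and 0.257 and 0.480 CPM in PCa. Acta1 followed the smooth muscle genes, at 0.0690 to 0.201 times the Acta2 counts in WT and PIN and 0.0225 and 0.0596 times in PCa. Of the windows of 50 bases of its longest transcript, 2.00% were shared with other actins. Myog, the myogenic regulator, was at 0 in 8 of 8 libraries, and Myh4, a fast skeletal myosin, was at 0 in 7, but with Myh8 they were the only 3 of the 15 markers under 1 CPM in every library. Ckm, the muscle creatine kinase, and Tnnc2, fast skeletal troponin C, were present in every WT and PIN library, at up to 9.49 and 10.8 CPM, had 2 counts or fewer in each PCa library, and were both called lower against WT. Tnnt3, fast skeletal troponin T, was at 11.6 CPM in PCa 1 and at 0.593 CPM or less elsewhere. Mb, myoglobin, and Mylpf, a fast skeletal myosin light chain, had log2 fold changes above 0 against WT, 3.65 and 0.96, with adjusted p of 0.0728 and 0.302 (edgeR quasi-likelihood, Benjamini-Hochberg), and neither was called. For Mb, Mylpf, Tnni1 and Tnni2 both PCa libraries were above every WT library, an order whose share over all genes was not computed. Tnni1 and Tnni2 did not pass the filter. In PCa 1 and PCa 2, Tnni1 had 7 and 39 counts and Tnni2 had 69 and 9. The list summed to 71.2 to 215 CPM in WT, 60.3 to 277 in PIN, and 16.8 and 10.1 in PCa. Of 6 cardiac markers 2 were tested and 0 called (median -0.33), with sums of 2.04 to 16.6 CPM in WT and 1.61 and 16.9 in PCa.

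Of 8 transcription factors and coactivators that read muscle genes, 1, Myocd, was called lower in PCa against WT, with 4.18% of all genes called lower. The median of the 8 was -0.29 on the log2 scale. Myocd, myocardin, the coactivator restricted to smooth and cardiac muscle, was at 11.3, 4.21 and 13.2 CPM in WT, 12.7, 11.0 and 16.8 CPM in PIN, and 0.322 and 0.0343 CPM in PCa, values that rest on 10 counts and 1 count. Its log2 fold change was -5.70 ± 0.94, with an adjusted p of 0.0149 (edgeR quasi-likelihood, Benjamini-Hochberg). Srf, the DNA-binding serum response factor, was at 50.9, 31.8 and 42.1 CPM in WT, 34.7, 33.4 and 42.7 CPM in PIN, and 29.6 and 26.7 CPM in PCa. The PCa values of Srf were the lowest by a small margin, with a log2 fold change of -0.56 ± 0.25 that was not called. At the other ends of the list were Gata6 at -1.27 ± 0.73, and Mef2a and Mef2c at 0.58 ± 0.31 and 0.66 ± 0.59, none of which was called. Mkl1 and Mkl2, the broadly expressed relatives of myocardin, stood at -0.26 ± 0.26 and 0.16 ± 0.27. Against PIN, Myocd was again the 1 gene called of the 8, with 3.17% of all genes called lower.

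Regulators of contraction fell in part. Of 19 genes, 8 were called lower in PCa against WT and 0 higher, with 4.18% of all genes tested called lower. The median of the list was -1.74 on the log2 scale, beside 0.01 over all genes. Against PIN 9 were lower, with 3.17% of all genes called lower, and the median was -1.81 beside 0.07. Pln, phospholamban, which restrains the calcium pump of the internal store, was at 1.68, 0.770 and 1.87 CPM in WT and had 0 counts in both PCa libraries. Against a limit of 3 counts over both PCa libraries, Pln was at least 28.9-fold lower than in WT. Tpm2, β-tropomyosin, was at 386, 232 and 475 CPM in WT and 6.40 and 2.13 CPM in PCa, with a log2 fold change of -6.41 ± 0.72. Myl9, the regulatory light chain of smooth muscle myosin and the substrate of Mylk, was at 269, 120 and 248 CPM in WT and 4.44 and 1.20 CPM in PCa, a log2 fold change of -6.23 ± 0.77. For each of these 3 genes both PCa libraries lay below every WT library, and the list's median stays at -1.74 with Pln at its limit.

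The channels and calcium-handling genes called lower against WT were Mrvi1 (-4.74 ± 0.63), Cacna1c, the L-type calcium channel (-4.40 ± 0.90), and Kcnma1, the large-conductance potassium channel (-3.25 ± 0.48). Kcnma1 was at 67.9, 206 and 183 CPM in WT, highest in WT 2, where the contractile genes were lowest. Cald1, caldesmon, was at -4.30 ± 0.58 and Tpm1, α-tropomyosin, which epithelial and stromal cells also make, at -1.57 ± 0.34. Prkg1, the cyclic GMP-dependent kinase of relaxation, was called lower against PIN only, at -3.23 ± 0.74, and was at -2.37 ± 0.71 against WT; the difference between these was not tested. The general enzymes Rhoa, Rock1 and Rock2 were at -0.05 ± 0.25, 0.12 ± 0.41 and -0.15 ± 0.54 against WT, and were not called. The highest value of the list, 1.73 ± 1.09 for Ppp1r12b, a myosin phosphatase subunit, came from PCa 2 alone, with 932 CPM there and 28.7 CPM in PCa 1, against 58.6 to 209 CPM in WT.

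Of 19 genes for proteins that anchor actin at the membrane and in dense bodies, 9 were called lower against WT and 8 against PIN. Of all genes tested, 4.18% and 3.17% were called lower. The list's medians were -2.82 and -2.92 on the log2 scale, beside 0.01 and 0.07 over all genes. Synpo2, an actin-binding protein of dense bodies also called myopodin, was at 155, 83.7 and 257 CPM in WT and 3.86 and 1.99 CPM in PCa, a log2 fold change of -5.82 ± 0.66. Pgm5, aciculin, of adherens-type junctions in muscle, was at 170, 70.8 and 202 CPM in WT and 7.37 and 0.823 CPM in PCa, at -5.17 ± 0.98. Other called genes were Nexn (-3.73), Tgfb1i1 (-3.67), Flna (-2.97), Csrp1 (-2.90), Dmd (-2.07) and Tln1 (-1.12). At the upper end, Actn1, a non-muscle α-actinin, was at 0.40 ± 0.47 and Svil, supervillin, at -0.26 ± 0.55, and neither was called. The value of Actn1 came from PCa 2 alone, with 334 CPM there and 94.4 CPM in PCa 1, against 126 to 184 CPM in WT. In PIN against WT 0 genes of these 3 lists were called, and their medians were -0.15, 0.19 and 0.19.

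**Figure D5:**
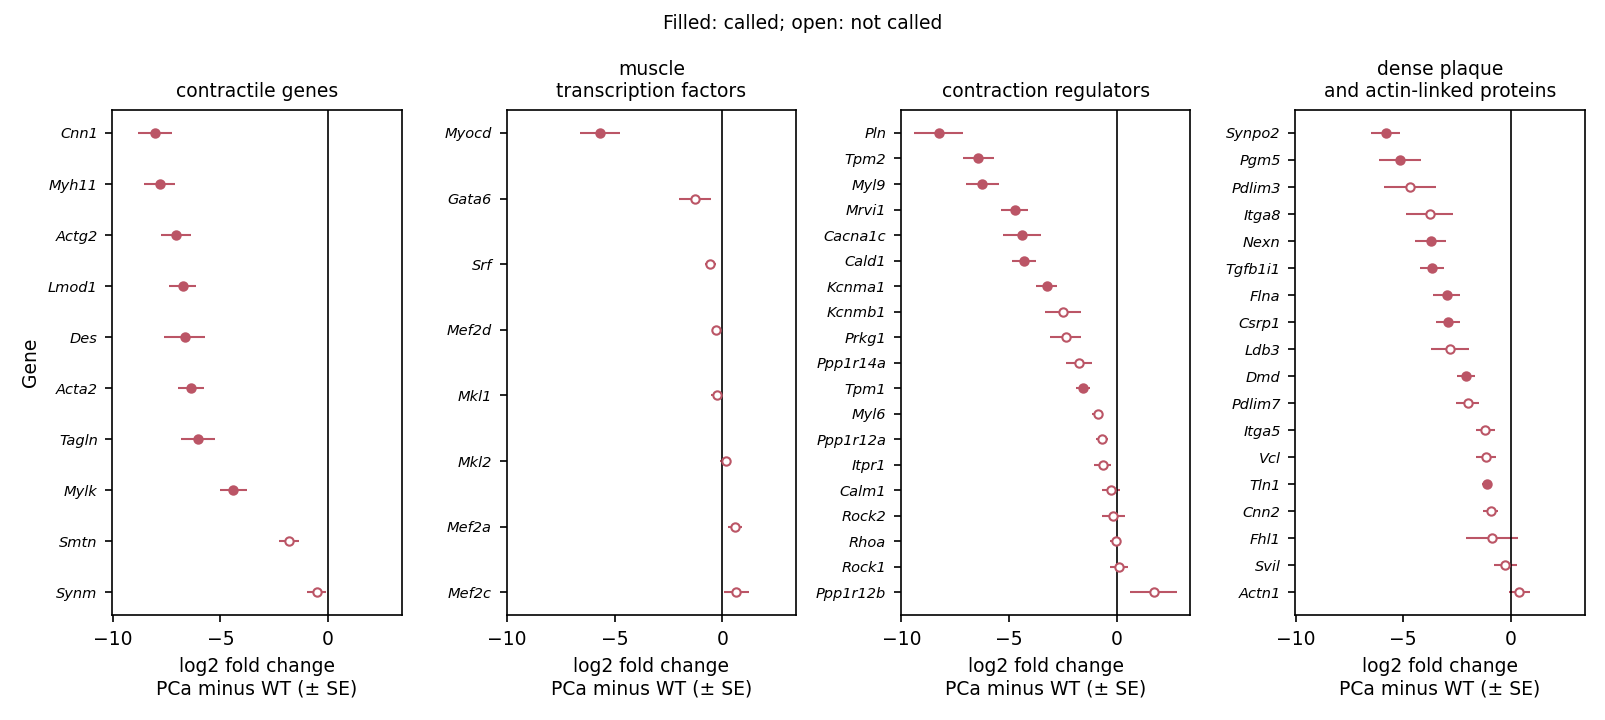
Log2 fold change in PCa against WT with its SE for the contractile genes and for the transcription factors, contraction regulators and anchoring proteins, each list sorted by value, with called genes filled. Of the genes drawn, 8 of 10, 1 of 8, 8 of 19 and 8 of 18 are filled, all to the left of 0; the fitted value of Pln, at 0 counts in PCa, depends on the fit and is not a bound.

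Outside all these lists, the 10 genes whose log2(CPM + 1) followed the mean of the contractile genes most closely over the 8 libraries were Jph2, Gnao1, Tns1, Cap2, Adcy5, Casq2, Dlg2, Ank1, Tspan2 and Gm10935, with Pearson correlations of 0.998 to 0.993. The points share library depth and the gap between PCa and the rest, so these are descriptions, and low values in PCa were fixed by the way the 10 were chosen. Jph2, junctophilin, which holds the calcium store close to the cell membrane in muscle, was at 47.4, 13.2 and 41.8 CPM in WT, 35.0, 27.2 and 49.7 CPM in PIN, and 0.579 and 0.309 CPM in PCa. Its lowest WT or PIN library was WT 2, as for the contractile genes, a likeness that the choice by correlation favored. Casq2, calsequestrin, which binds calcium inside that store, was at 10.5, 6.43 and 12.4 CPM in WT and 0.386 and 0.309 CPM in PCa. Tns1, the focal adhesion protein tensin, was at 694, 317 and 684 CPM in WT and 37.3 and 29.97 CPM in PCa. As a description, the log2 fold changes of these 10 genes against WT ran from -11.19 for Gm10935 to -4.07 for Tns1.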

How the data were processed

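Paired-end libraries depleted of ribosomal RNA were made from 3 WT, 3 PIN and 2 PCa mouse prostate tissues. The authors trimmed reads with cutadapt 1.9.1, aligned them to mm9 with HISAT2 2.1.0 and counted them per gene with HTSeq 0.6.1; the deposited values are raw counts, not normalized, with the strand setting not stated. Another kind of column in the deposited table, the total exon length of each gene, was used for TPM. No source states that replicates of a group came from separate animals, so p-values measure the spread between these libraries.

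Counts were fitted in edgeR 4.0.16 (R 4.3.3) with TMM scaling and a quasi-likelihood F-test, with all 8 libraries in a model of 3 groups and 5 residual degrees of freedom. Genes above 1 CPM in at least 2 libraries were kept, p-values were adjusted by Benjamini-Hochberg, and calls needed an adjusted p under 0.05 and a change past 1 on the log2 scale. The SE was the absolute log2 fold change divided by the square root of F, and fold values are 2 to the power of the fitted log2 fold change. The steps were tested on simulated counts. A pseudocount of 1 was used on the log2 CPM scale.

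The contractile genes, the pathway and marker lists and the tests were chosen with earlier results of these data known. The rule for names was to give all 10 contractile genes in full, any called gene of a pathway list with at least its 2 lowest and 2 highest values, other markers by list, and the 10 genes most like the contractile genes. Of the listed genes, 1 is counted with its list and is otherwise not reported here. Gene positions in mm9 are those of the count table and equal those of GENCODE vM1 for all 10 genes. Promoters came from RefSeq on GRCm38.p6. Alternatives were upper-quartile, relative log expression (RLE) and no scaling, DESeq2 1.42.0, limma-trend (limma 3.58.1), the newer quasi-likelihood method, no filter, filterByExpr, only the groups compared, a replicate block, no fold limit and each library left out. The total counts per library, 21751803 to 29730420, limit the precision of genes with few counts.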

Additional observations from a re-analysis of the deposited data

How the results depend on the processing

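The number of contractile genes called in PCa against WT was 8 and became 5 with only the 2 groups compared and 9, with Smtn, by DESeq2 and by the newer quasi-likelihood method; it was 8 to 9 with 1 library left out. In PCa against PIN it was 8 and 6 to 9 with 1 library left out, the lowest without PIN 3, where Des and Mylk reached adjusted p of 0.0548 and 0.0541. With only the 2 groups compared it was 7, Des reaching 0.0504, and by DESeq2 it was 9. Against both WT and PIN, leaving out PCa 1 moved the fold of Cnn1, Tagln, Des and Lmod1 by over 1.5 times, and leaving out PCa 2 that of Cnn1, Tagln and Des; all of these stayed called. Without PCa 1 or PCa 2 the lone PCa library is assumed to vary like the other groups. The replicate block changed no call of a contractile gene. The mean correlation of deviations was 0.0827 for same-numbered samples of different groups and -0.0422 for different numbers. With 2 PCa libraries their deviations are mirror images, as for WT 1 with PCa 1 (0.265) and with PCa 2 (-0.265). These means therefore cannot decide whether the numbers pair samples.

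Counts over all genes moved more. In PIN against WT 0 genes became 39 with DESeq2, 1 with limma-trend and 1 with the newer quasi-likelihood method, and it was 0 with each library left out. In PCa against WT 1198 genes (611 higher, 587 lower) became 2394 (2005 higher, 389 lower) with library totals alone, 2487 with DESeq2, 130 with only the 2 groups compared, 413 with the replicate block, 2245 leaving out WT 1 and PCa 1 together, and 347 (without WT 3) to 2477 (without PCa 1) with 1 library left out. In PCa against PIN 803 genes (358 higher, 445 lower) became 1107 (786 higher, 321 lower) with library totals alone, 1984 with DESeq2, 388 with only the 2 groups compared, 151 with the replicate block, 2422 leaving out WT 1 and PCa 1 together, and 78 (without PIN 3) to 2251 (without PCa 1) with 1 library left out. The cause of these moves was not tested.

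In PIN against WT the sign of Smtn reversed to 0.074 with library totals alone, 0.050 with limma-trend, 0.0034 with the replicate block and 0.21 leaving out WT 1 and PCa 1 together. With 1 library left out the log2 fold changes in PIN against WT ranged for Smtn from -0.40 to 0.21, Myh11 from -0.013 to 0.71, Acta2 from -0.049 to 0.48, Actg2 from -0.028 to 0.70, Cnn1 from -0.084 to 0.39, Tagln from -0.20 to 0.30, Des from -0.21 to 0.31, Lmod1 from -0.14 to 0.45 and Mylk from -0.049 to 0.60.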
